A study of Drosophila melanogaster with 6 samples.

Results

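Voltage-gated sodium, calcium and potassium channels, inwardly rectifying and two-pore potassium channels and the sodium leak channel, with several of their accessory subunits, were compared between eye and antennal discs of Drosophila melanogaster larvae. The 32 genes were chosen by name, as genes of ion channels and their subunits. Of the 32, 31 had a row among the 17753 genes of the deposited tables and 30 had enough counts to be tested. Ca-beta, the calcium channel beta subunit, was not analysed here. Ork1, an open rectifier potassium channel, fell under the filter on low counts.

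Voltage-gated sodium and calcium channels open when the membrane depolarises and carry the inward currents of action potentials and of transmitter release, while potassium channels carry outward currents that repolarise the cell and set its resting potential. Accessory subunits bind the pore-forming proteins and change how many channels reach the membrane or how they open. The eye and antennal discs are joined larval epithelia that give rise to the adult eye and antenna. Behind the moving front of differentiation in the eye disc, cells become photoreceptor neurons and send axons towards the brain, and the light response of adult photoreceptors is shaped by potassium channels such as Shaker and Shab.

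Polyadenylated RNA was sequenced from 3 eye disc and 3 antennal disc libraries of last-instar larvae. Both tissues came from larvae of 1 genotype, yw;+;+, which the series describes as wild type and not transgenic. Each library pooled 30 discs, and the joined discs had been freed of the mouth hooks in PBS and parted by hand, so that the cut set what each tissue sample held. Replicates are biological ones, per the labels. Library totals ran from 17583649 counts in eye disc replicate 2 to 29093995 in antennal disc replicate 2, and 3 counts, the lowest level read here as detected, stood for 0.1003 to 0.1916 counts per-million (CPM), for counting error only. The eye determination gene eya was at 518, 464 and 501 CPM in the eye disc libraries and 35.4, 41.3 and 49.6 CPM in the antennal disc libraries. Dll, needed for distal antennal structures, was at 11.02, 20.6 and 9.34 CPM in the eye disc and 185, 240 and 258 CPM in the antennal disc. All 6 libraries therefore matched the tissue of their label in both genes, which were chosen after the tables were seen.

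Eye disc replicate 3 stood apart for the channel genes. It held the highest of the 3 eye disc values for 28 of the 30 tested genes (93.3%), against 32.6% of all genes tested. Its level was at least 2-fold above the mean of eye disc replicates 1 and 2 for 15 of the 30 (50%), against 5.16% of all genes. Eye disc replicate 2 was the lowest eye disc library for 25 of the 30, a count that was not taken over all genes. Values without eye disc replicate 3 are therefore given beside the results that rest on it.

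Most channel genes had higher mean levels in the eye disc, and 27 of the 30 tested had a positive log2 fold change. Of the 30 tested, 15 were called higher in the eye disc, at an adjusted p under 0.05 in edgeR's quasi-likelihood test with Benjamini-Hochberg adjustment over 9901 genes, and 0 were called higher in the antennal disc. Over all genes tested, 14.6% were called higher in the eye disc and 11.7% higher in the antennal disc. The 15 genes were para, tipE, na, unc79, Sh, Shaw, eag, sei, SK, Ih, Irk2, Task6, cac, Ca-alpha1T and stj, and 12 of them differed by at least 4-fold as fitted. Of the 30 tested, eag and Task7 passed the filter on low counts through the eye disc libraries alone, so a difference was built into their passing, and eag is among the 15. All 3 eye disc libraries lay above all 3 antennal disc libraries for 19 genes, and no gene showed the opposite order. Such separated ranges were found with the eye disc above for 23.4% of all genes and with the antennal disc above for 22.2%. The median log2 fold change, eye disc over antennal disc, was 1.87 for the 30 channel genes and 0.0046 for all genes. These are whole tissues, so fewer cells of a type and less RNA per cell cannot be told apart.

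Without eye disc replicate 3, 13 channel genes were called higher in the eye disc and 0 in the antennal disc, beside 12.4% and 9.21% of all genes, and the median log2 fold change was 1.19. All 13 were among the 15, and Sh and Shaw were the 2 no longer called. Leaving out eye disc replicate 1 or 2 gave 13 and 17 calls, beside 13.8% and 14.5% of all genes. Leaving out antennal disc replicate 1, 2 or 3 gave 12, 11 and 12 calls, beside 10.9%, 9.07% and 9.33% of all genes. In all 6 of these fits 10 of the 15 genes were called. Those 10 were para, tipE, na, unc79, Ih, Irk2, Task6, cac, Ca-alpha1T and stj. NaCP60E was called higher in the antennal disc when antennal disc replicate 1 was left out, where 8.98% of all genes were. With the replicate number as a block, 14 genes were called higher in the eye disc and 1 in the antennal disc, beside 16.3% and 14.1% of all genes. DESeq2 called 18 and 1, beside 18.7% and 15.5%. The limma test called 10 genes higher in the eye disc on log2(TPM + 1) and 11 on log2(TPM + 0.1), beside 8.67% and 9.18%. It used TPM as deposited, without further scaling between libraries. Both limma fits lost Sh, eag, sei, SK and Ca-alpha1T, and the second added Task7.

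**Figure D1:**
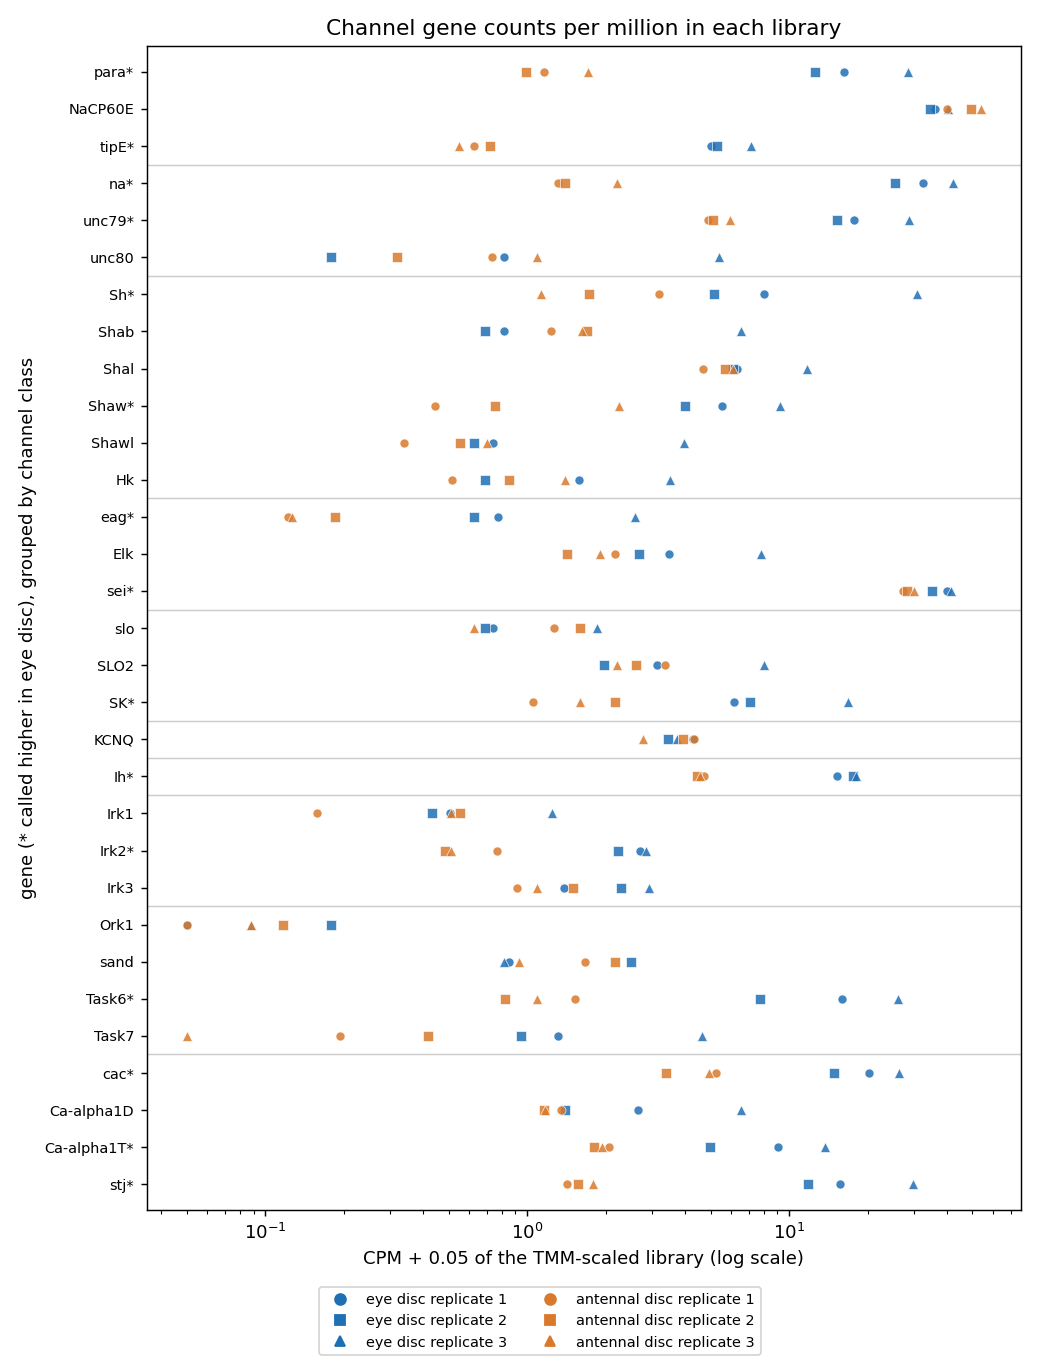
Level of each of the 31 channel genes in each library, as CPM + 0.05 on a log scale; circles, squares and triangles are replicates 1, 2 and 3, blue is eye disc, orange is antennal disc, and an asterisk marks the 15 genes called higher in the eye disc. Eye disc replicate 3 is the rightmost eye disc point in 28 of the 30 tested rows. The tissues overlap in 11 of the 30, among them NaCP60E, KCNQ, slo and sand.

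**Figure D2:**
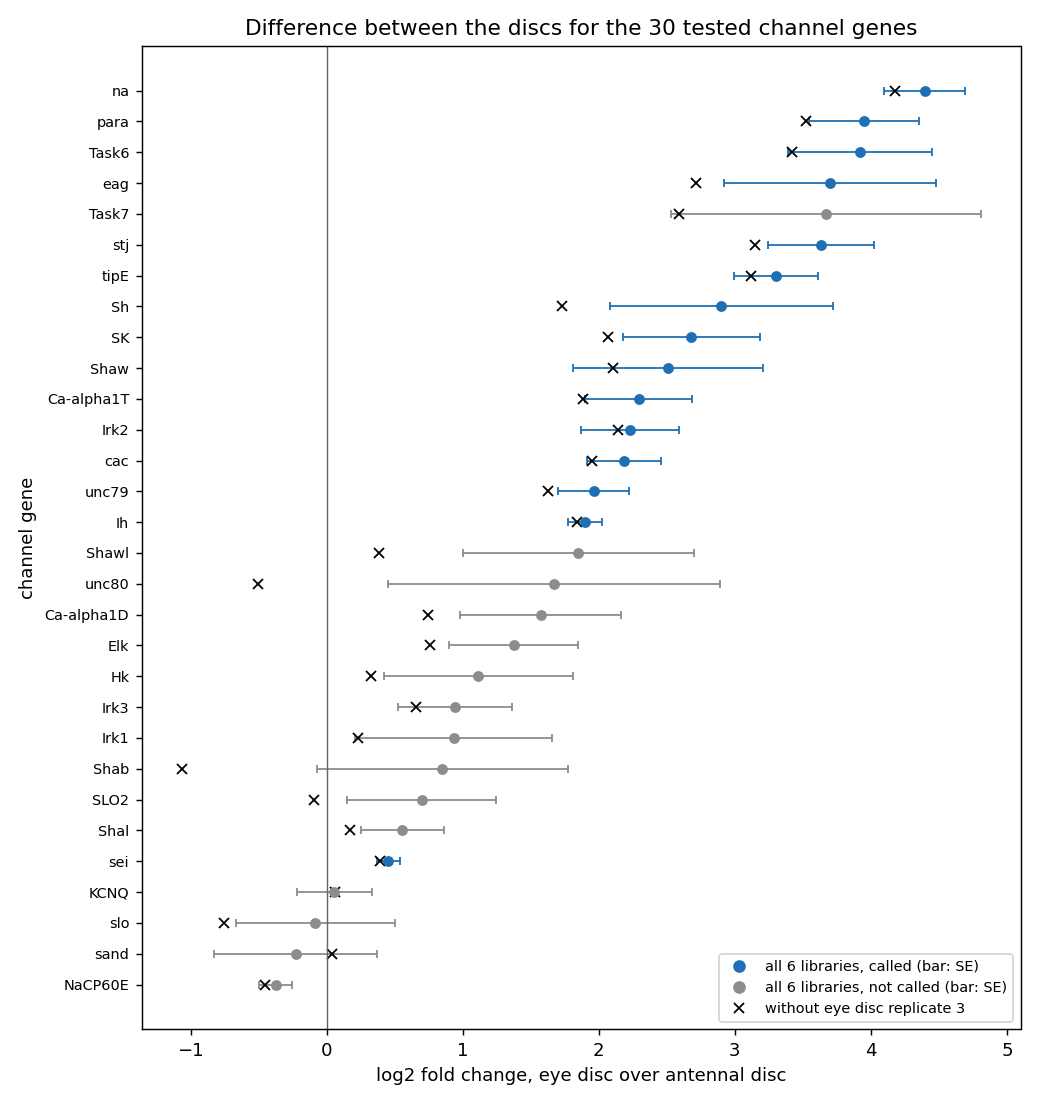
Log2 fold change, eye disc over antennal disc, of the 30 tested channel genes, with its approximate SE as a bar and the value without eye disc replicate 3 as a cross; blue points were called and grey points were not. Of the points, 27 lie above 0 with all libraries and 25 without eye disc replicate 3.

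Of the sodium channel genes, para and tipE were called higher in the eye disc and NaCP60E was not called. The gene para (FBgn0285944, chrX:16455027-16533096, dm6), the pore-forming sodium channel of fly action potentials, was at 16.2, 12.5 and 28.4 CPM in eye disc replicates 1, 2 and 3 and 1.11, 0.936 and 1.65 CPM in the antennal disc replicates. Every eye disc library was far above every antennal disc library, with eye disc replicate 3 highest. The difference was 15.4-fold, a log2 fold change of 3.95 ± 0.40 (SE; edgeR adjusted p = 0.00105). Its accessory subunit tipE (FBgn0003710, chr3L:4188499-4193788), which raises para currents when both are expressed in frog oocytes, was at 4.99, 5.24 and 7.08 CPM in eye disc replicates 1, 2 and 3 and 0.573, 0.669 and 0.499 CPM in the antennal disc replicates. The eye disc libraries lay close together and all exceeded the antennal ones, with a log2 fold change of 3.30 ± 0.31 (SE; edgeR adjusted p = 0.000681). CG18675, on the same strand, covered 84.5% of the tipE span and had itself a log2 fold change of 2.88, so counts of the 2 genes may be shared out between them.

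NaCP60E (FBgn0085434, chr2R:24891614-24921677), a relative of para described as a cation channel, had the highest mean TPM of the 3 sodium channel genes in both tissues and a negative log2 fold change. In eye disc replicate 3, however, tipE was above it, at 3.31 against 3.22 TPM. NaCP60E was at 35.8, 34.4 and 40.2 CPM in eye disc replicates 1, 2 and 3 and 39.9, 49.5 and 53.8 CPM in the antennal disc replicates. The tissues overlapped by a small margin, since antennal disc replicate 1 lay just under eye disc replicate 3. With a log2 fold change of -0.38 ± 0.12 (SE; edgeR adjusted p = 0.0696) it was not called. With the replicate number as a block the value was -0.37 and passed the test (edgeR adjusted p = 0.0388), as did -0.50 without antennal disc replicate 1 (edgeR adjusted p = 0.0217). RpL41 and pain overlap NaCP60E on the opposite strand, with RpL41 at 3267 and 3554 mean CPM in eye and antennal disc and pain at 59.6 and 92.2. The strand setting of the counting is not given in the sources used here, so counts of the 3 genes may not be separate.

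The sodium leak channel and 1 of its accessory proteins were higher in the eye disc. The gene na (FBgn0002917, chrX:14266367-14277416), the leak channel narrow abdomen known for its role in clock neurons, was at 32.3, 25.2 and 42.03 CPM in eye disc replicates 1, 2 and 3 and 1.25, 1.34 and 2.15 CPM in the antennal disc replicates. Its 21.03-fold difference was the largest among the channel genes tested, at a log2 fold change of 4.39 ± 0.30 (SE; edgeR adjusted p = 0.000255). No other gene overlaps it, and no library brought the tissues near each other. The gene unc79 (FBgn0038693, chr3R:19230764-19246130), whose product works with the leak channel, was at 17.5, 15.2 and 28.6 CPM in eye disc replicates 1, 2 and 3 and 4.84, 5.05 and 5.87 CPM in the antennal disc replicates. The eye disc libraries were all above the antennal disc libraries, by 3.90-fold, at a log2 fold change of 1.96 ± 0.26 (SE; edgeR adjusted p = 0.00285). Summed with Polr2M, which overlaps 0.449% of its span on the opposite strand and lies at 30.8 and 34.9 mean CPM, the log2 fold change was 0.35.

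Its partner unc80 (FBgn0039536, chr3R:27662439-27677099), named with values after they were seen, was at 0.762, 0.128 and 5.36 CPM in eye disc replicates 1, 2 and 3 and 0.681, 0.267 and 1.04 CPM in the antennal disc replicates. A single library, eye disc replicate 3, was 12.04-fold above the mean of the other eye disc libraries, which overlapped the antennal ones. The log2 fold change of 1.67 ± 1.22 (SE; edgeR adjusted p = 0.357) was not called. It was -0.50 without eye disc replicate 3.

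Among the genes of the Shaker superfamily of voltage-gated potassium channels, Sh and Shaw were called and Shab, Shal, Shawl and the beta subunit gene Hk were not. Sh (FBgn0003380, chrX:17924307-18063247), the fast-inactivating A-type channel Shaker, was at 7.93, 5.11 and 30.7 CPM in eye disc replicates 1, 2 and 3 and 3.12, 1.67 and 1.07 CPM in the antennal disc replicates. Eye disc replicate 3 was 4.72-fold above the mean of the other eye disc libraries, and even the lowest eye disc library exceeded the highest antennal one. The log2 fold change of 2.90 ± 0.82 (SE; edgeR adjusted p = 0.0492) was near the threshold. With the replicate number as a block it was 2.49 (edgeR adjusted p = 0.132), and with no TMM factor it was 2.91 (edgeR adjusted p = 0.083).

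The call of Sh held when eye disc replicate 2 was left out and was lost without each of the other libraries. The log2 fold change was 3.20 without eye disc replicate 1 (edgeR adjusted p = 0.0532) and 1.73 without eye disc replicate 3 (edgeR adjusted p = 0.0598). It was 3.40, 2.79 and 2.61 without antennal disc replicates 1, 2 and 3 (edgeR adjusted p = 0.0797, 0.15 and 0.154). Each of these fits compared 3 libraries with 2.

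Shaw (FBgn0003386, chr2L:3718185-3729145), a channel with little voltage dependence that contributes to resting current in fly neurons, was at 5.49, 3.96 and 9.19 CPM in eye disc replicates 1, 2 and 3 and 0.394, 0.702 and 2.19 CPM in the antennal disc replicates. The ranges did not overlap, although antennal disc replicate 3 was well above the other antennal disc libraries. Shaw was called at a log2 fold change of 2.51 ± 0.70 (SE; edgeR adjusted p = 0.0431). It was lost without eye disc replicate 1 at 2.59 (edgeR adjusted p = 0.0725) and without eye disc replicate 3 at 2.10 (edgeR adjusted p = 0.0999). Without antennal disc replicates 1 and 2 the values were 2.10 and 2.26 (edgeR adjusted p = 0.0878 and 0.143). Without antennal disc replicate 3 it was 3.49 (edgeR adjusted p = 0.019).

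The 4 genes of this class that were not called had mean levels between 0.480 and 7.99 CPM. Shal (FBgn0005564, chr3L:19566851-19584568), a somatodendritic A-type channel, was at 6.25, 6.07 and 11.6 CPM in eye disc replicates 1, 2 and 3 and 4.62, 5.62 and 6.06 CPM in the antennal disc replicates. Its eye disc libraries were just above the antennal ones, at a log2 fold change of 0.56 ± 0.30 (SE; edgeR adjusted p = 0.224). Without eye disc replicate 3 the value was 0.17 (edgeR adjusted p = 0.62). Shab (FBgn0262593, chr3L:2895017-2959579), a delayed rectifier, was at 0.762, 0.639 and 6.47 CPM in eye disc replicates 1, 2 and 3 and 1.18, 1.64 and 1.57 CPM in the antennal disc replicates. Eye disc replicates 1 and 2 were under all antennal disc libraries and replicate 3 was over them, so that the log2 fold change of 0.85 with all libraries became -1.06 without eye disc replicate 3 (edgeR adjusted p = 0.535 and 0.124). Shawl and Hk had log2 fold changes of 1.85 and 1.11 (edgeR adjusted p = 0.158 and 0.282), and eye disc replicate 3 was 6.19-fold and 3.19-fold above the mean of the other eye disc libraries. Without that library Shawl was at 0.39 and Hk at 0.32 (edgeR adjusted p = 0.65 and 0.75). Shawl turned to -0.30 when its counts were summed with those of the genes that overlap it. These include Aldh, at 31.8 and 41.0 mean CPM in eye and antennal disc.

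Genes of the ether-a-go-go family were each at a positive log2 fold change, and eag and sei were called. The founding gene eag (FBgn0000535, chrX:14955477-15009989), named for the leg shaking of mutant flies, was at 0.724, 0.575 and 2.53 CPM in eye disc replicates 1, 2 and 3 and 0.0717, 0.134 and 0.0767 CPM in the antennal disc replicates. The antennal disc held only 2, 4 and 2 counts, close to the floor of 3 counts, and every eye disc library was above them. No antennal disc library reached the 0.389 CPM that the filter asked of 3 libraries, and eag was not tested when 1 CPM was asked. The fitted size, a log2 fold change of 3.70 ± 0.78 (SE; edgeR adjusted p = 0.016), rests on these few antennal counts. Without eye disc replicate 3 it was 2.71 (edgeR adjusted p = 0.0284). The call was lost without antennal disc replicates 1, 2 and 3, at 3.53, 4.02 and 3.57 (edgeR adjusted p = 0.0642, 0.0587 and 0.0754).

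The gene sei (FBgn0003353, chr2R:24047411-24053035), the fly relative of the human ERG channel known for its heat-sensitive paralytic mutants, had the highest TPM of its family in both tissues. It was at 39.9, 35.1 and 41.4 CPM in eye disc replicates 1, 2 and 3 and 27.1, 28.1 and 29.9 CPM in the antennal disc replicates. No library of either disc was low, and the eye disc libraries were above the antennal ones by a modest margin. The 1.37-fold difference was the smallest among the 15 called genes, at a log2 fold change of 0.45 ± 0.084 (SE; edgeR adjusted p = 0.0104). It was 0.41 with no TMM factor (edgeR adjusted p = 0.0705) and 0.44 without antennal disc replicate 2 (edgeR adjusted p = 0.0534). Elk, the third gene of the family, was at 3.43, 2.62 and 7.73 CPM in the eye disc libraries and 2.11, 1.37 and 1.84 CPM in the antennal disc libraries. The tissues did not overlap, and the log2 fold change of 1.37 ± 0.48 (SE; edgeR adjusted p = 0.079) did not pass the test. Elk was called at 1.66 without eye disc replicate 2 (edgeR adjusted p = 0.0426). Without eye disc replicate 3 its log2 fold change was 0.76 (edgeR adjusted p = 0.18). Elk summed with the genes that overlap it was also called, at 1.45. These include PPO1, at 292 and 107 mean CPM in eye and antennal disc and itself at 1.45. The counts of that sum were mostly those of PPO1, so its call is not one of Elk alone.

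Of the potassium channels opened by calcium or sodium, SK was called and slo and SLO2 were not. SK (FBgn0029761, chrX:5340236-5405138), the small-conductance calcium-activated channel, was at 6.10, 7.03 and 16.7 CPM in eye disc replicates 1, 2 and 3 and 1.003, 2.11 and 1.53 CPM in the antennal disc replicates. Eye disc replicate 3 was the highest and all eye disc libraries exceeded the antennal ones, at a log2 fold change of 2.68 ± 0.50 (SE; edgeR adjusted p = 0.0108). It was 2.07 without eye disc replicate 3 (edgeR adjusted p = 0.0155), and the call was lost without antennal disc replicate 3 at 2.67 (edgeR adjusted p = 0.0562).

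The gene slo, the large-conductance calcium- and voltage-gated channel, was at 0.686, 0.639 and 1.80 CPM in the eye disc and 1.22, 1.54 and 0.575 CPM in the antennal disc. The libraries of the 2 tissues were interleaved, and the log2 fold change of -0.082 ± 0.59 changed sign without eye disc replicate 1, eye disc replicate 2 or antennal disc replicate 2, at 0.15, 0.17 and 0.22. SLO2, a sodium-activated relative, had a log2 fold change of 0.70 ± 0.55, which was -0.094 without eye disc replicate 3.

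KCNQ and Ih are each the single listed gene of their kind, and Ih was called while KCNQ was not. KCNQ (FBgn0033494, chr2R:10145897-10192394), a slowly activating channel of the M-current type, was at 4.23, 3.39 and 3.68 CPM in eye disc replicates 1, 2 and 3 and 4.26, 3.88 and 2.72 CPM in the antennal disc replicates. The tissues overlapped throughout, at a log2 fold change of 0.056 ± 0.28 (SE; edgeR adjusted p = 0.9), with the sign turning to -0.016 on the log2(TPM + 1) scale, -0.042 without eye disc replicate 1 and -0.12 without antennal disc replicate 3. Ih (FBgn0263397, chr2R:14276130-14300095), the channel opened by hyperpolarisation and cyclic nucleotides, was at 15.1, 17.5 and 17.9 CPM in eye disc replicates 1, 2 and 3 and 4.66, 4.38 and 4.52 CPM in the antennal disc replicates. Libraries within each tissue were nearly equal, and eye disc replicate 3 was only 1.10-fold above the mean of the other eye disc libraries. Ih was 3.72-fold higher in the eye disc, at a log2 fold change of 1.90 ± 0.13 (SE; edgeR adjusted p = 0.000189), and no other gene overlaps it.

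Of the inwardly rectifying potassium channel genes, Irk2 alone passed the test. Irk2 (FBgn0039081, chr3R:23513617-23519445) was at 2.63, 2.17 and 2.79 CPM in eye disc replicates 1, 2 and 3 and 0.717, 0.435 and 0.460 CPM in the antennal disc replicates. The tissues were well apart and the eye disc libraries close together, at a log2 fold change of 2.23 ± 0.36 (SE; edgeR adjusted p = 0.00625). Irk3 (FBgn0032706, chr2L:18711071-18713748), the gene of highest mean TPM of the class in both tissues, was at 1.33, 2.24 and 2.87 CPM in eye disc replicates 1, 2 and 3 and 0.860, 1.44 and 1.04 CPM in the antennal disc replicates. Eye disc replicate 1 was under antennal disc replicate 2, and the log2 fold change of 0.95 ± 0.42 (SE; edgeR adjusted p = 0.145) did not pass. Grip71 covers 8.48% of the Irk3 span on the other strand, at 42.7 and 47.7 mean CPM in eye and antennal disc. Summed with Grip71, Irk3 was at -0.12. Irk1 had a log2 fold change of 0.93 ± 0.72 at 0.107 to 1.19 CPM, and 0.23 without eye disc replicate 3. CG46310, on the same strand, covers 67.9% of the Irk1 span at 62.4 and 92.3 mean CPM in eye and antennal disc. Irk1 summed with the genes that overlap it was at -0.48 (edgeR adjusted p = 0.00311), on counts that were mostly theirs.

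Among the two-pore potassium channels, which set the resting potential, Task6 was called. Task6 (FBgn0038165, chr3R:13667046-13674542), a relative of the acid-sensitive mammalian TASK channels, was at 15.9, 7.67 and 26.03 CPM in eye disc replicates 1, 2 and 3 and 1.47, 0.769 and 1.04 CPM in the antennal disc replicates. Even eye disc replicate 2, the lowest, was above the highest antennal disc library, and the difference of 15.1-fold had a log2 fold change of 3.92 ± 0.53 (SE; edgeR adjusted p = 0.0034). Its relative Task7 (FBgn0037690, chr3R:9410329-9412293) was at 1.26, 0.894 and 4.59 CPM in eye disc replicates 1, 2 and 3 and 0.143, 0.368 and 0 CPM in the antennal disc replicates. All eye disc libraries were above the antennal ones, where antennal disc replicate 3 held 0 counts, but the log2 fold change of 3.67 ± 1.14 (SE; edgeR adjusted p = 0.0597) missed the threshold. Without eye disc replicate 3 it was 2.59 (edgeR adjusted p = 0.135).

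The gene sand, known from sleep-controlling neurons, was the one tested gene of the class with a lower mean in the eye disc, at 0.8004, 2.43 and 0.766 CPM against 1.61, 2.11 and 0.882 CPM. The libraries of the tissues overlapped and the log2 fold change was -0.23 ± 0.60. It changed sign without eye disc replicate 1, eye disc replicate 3 or antennal disc replicate 2, at 0.028, 0.040 and 0.066. The gene uno overlaps sand on the opposite strand, at 16.0 and 12.8 mean CPM in eye and antennal disc. Summed with uno, sand was at 0.28 (edgeR adjusted p = 0.0476), on counts that were mostly those of uno. Ork1 reached at most 0.128 CPM, in eye disc replicate 2, and no library held more than 2 counts of it. It was not detectable above the floor at this depth.

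Calcium channel genes were higher in the eye disc in 3 of the 4 tested. The gene cac (FBgn0263111, chrX:11931280-11985087), the pore-forming subunit of the presynaptic calcium channel cacophony, was at 20.01, 14.7 and 26.2 CPM in eye disc replicates 1, 2 and 3 and 5.20, 3.34 and 4.87 CPM in the antennal disc replicates. The tissues did not overlap, and cac was 4.55-fold higher in the eye disc, at a log2 fold change of 2.18 ± 0.27 (SE; edgeR adjusted p = 0.00214). The gene stj (FBgn0261041, chr2R:13805794-13819571), straightjacket, encodes the alpha2delta subunit that helps to place cac at synapses and was at 15.6, 11.8 and 29.7 CPM in eye disc replicates 1, 2 and 3 and 1.36, 1.504 and 1.73 CPM in the antennal disc replicates. Its difference was the larger of the pair, 12.4-fold, at a log2 fold change of 3.63 ± 0.39 (SE; edgeR adjusted p = 0.00127). Both genes are free of overlap with other genes and kept their call when each library was left out.

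Ca-alpha1T (FBgn0264386, chrX:6104085-6192483), the low-voltage-activated T-type channel, was at 8.995, 4.92 and 13.6 CPM in eye disc replicates 1, 2 and 3 and 2.01, 1.74 and 1.88 CPM in the antennal disc replicates. The antennal libraries were nearly equal and all eye disc libraries exceeded them, at a log2 fold change of 2.29 ± 0.39 (SE; edgeR adjusted p = 0.00758). Ca-alpha1D, the L-type channel of fly muscle and neurons, was at 2.59, 1.34 and 6.47 CPM in the eye disc and 1.29, 1.10 and 1.11 CPM in the antennal disc. The lowest eye disc library lay just above the highest antennal one, and the log2 fold change of 1.57 ± 0.59 (SE; edgeR adjusted p = 0.0996) did not pass. Without eye disc replicate 2 it was 1.96 and passed (edgeR adjusted p = 0.0307), and without eye disc replicate 3 it was 0.75 (edgeR adjusted p = 0.257).

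Summed over each class, the leak, two-pore and calcium channel genes were well apart between the tissues. Leak channel genes came to 50.6, 40.6 and 76.03 CPM in the eye disc libraries and 6.77, 6.65 and 9.05 CPM in the antennal disc libraries. Calcium channel genes came to 47.2, 32.7 and 75.99 CPM in the eye disc and 9.85, 7.69 and 9.59 CPM in the antennal disc. Two-pore genes came to 17.95, 11.1 and 31.4 CPM against 3.22, 3.31 and 1.96 CPM. The sums of the sodium channel genes overlapped, at 56.98, 52.1 and 75.6 CPM against 41.6, 51.1 and 55.9 CPM, with NaCP60E the main part of the antennal sum.

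**Figure D3:**
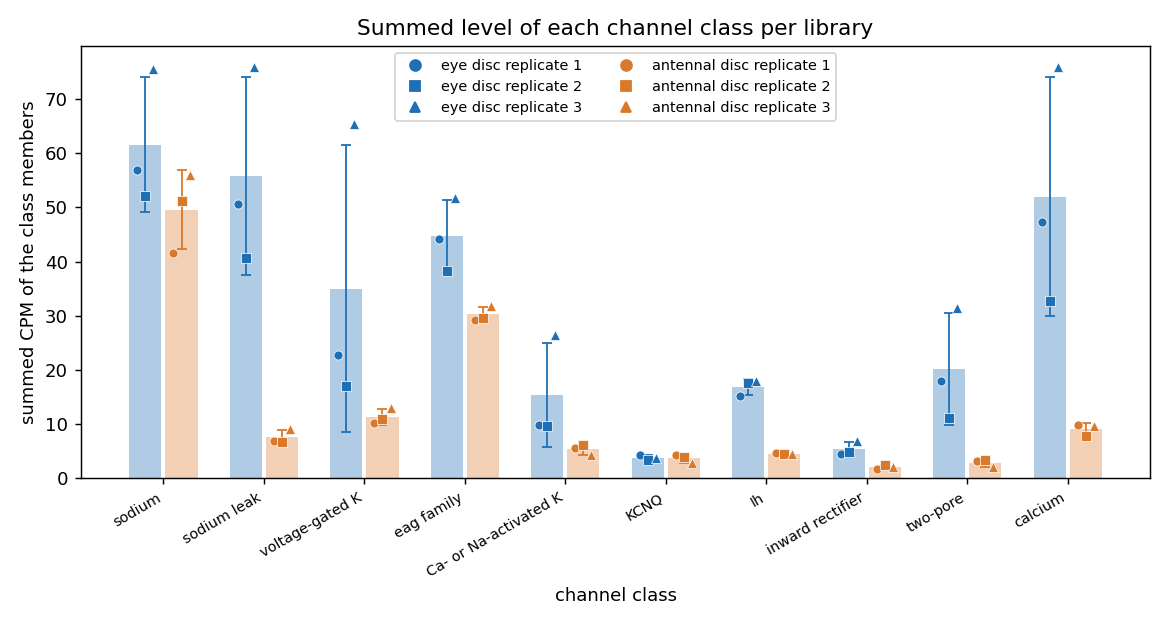
CPM summed over the genes of each channel class; bars are means, error bars are SD over 3 libraries per tissue, and circles, squares and triangles are replicates 1, 2 and 3. The leak and calcium channel sums lie at 40.6 to 76.03 and 32.7 to 75.99 CPM in the eye disc and at 6.65 to 9.05 and 7.69 to 9.85 CPM in the antennal disc.

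Levels of different genes were compared as TPM, which divides by gene length. The length used for these tables was the whole gene span, introns included, so a gene with long introns is given a low TPM. On this scale sei was the highest channel gene of the eye disc, at 14.8 ± 4.90 TPM (SD, n = 3), followed by na at 6.47 ± 2.997, Task6 at 5.01 ± 3.51, stj at 3.04 ± 2.03 and unc79 at 2.87 ± 1.55 TPM. The ranges of sei and na met, with sei at 9.16 TPM in eye disc replicate 2 and na at 9.25 TPM in replicate 3. Within every eye disc library, however, sei was above na. Replicates 1, 2 and 3 held 16.9, 9.16 and 18.2 TPM of sei against 6.86, 3.30 and 9.25 TPM of na. Ranges of the lower neighbours overlapped. In the antennal disc sei led at 12.01 ± 0.536 TPM and was clear of NaCP60E at 3.68 ± 0.506 TPM, which was clear of Irk3 at 1.02 ± 0.260 TPM. Irk3 and the next gene, unc79 at 0.797 ± 0.0772 TPM, overlapped in range. A mean over 1 TPM was reached by 11 channel genes in the eye disc and by 3 in the antennal disc. Ranked instead by CPM per exonic kilobase, sei, na, Task6 and stj kept the first 4 places in the eye disc, and sei and NaCP60E the first 2 in the antennal disc.

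Channel genes are long genes, a property that the choice by name did not use. The 30 tested genes had a median span of 24338 bases, of which a median of 36.6% was exonic, and a median of 5 annotated transcripts. All tested genes with an annotation had medians of 2830 bases, 81.7% and 2 transcripts. Spans of 15 of the 31 genes in the tables overlap no other gene, 2 are covered over more than 50% of their length (tipE and Irk1) and 0 are wholly covered. Of the 15 called genes, 10 are free of overlap, namely na, Shaw, eag, SK, Ih, Irk2, Task6, cac, Ca-alpha1T and stj. By chromosome arm, X holds 9 of the 31 genes, 2R holds 8, 3R holds 7, 2L holds 4 and 3L holds 3.

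The spread between eye disc libraries differed among the channel genes. In eye disc replicate 3 the ratio to the mean of replicates 1 and 2 ran from 0.474 for sand to 12.04 for unc80, with a median of 1.94 over called genes and 2.82 over genes not called. Of the 15 genes at least 2-fold higher in that library, 5 were called and 10 were not. Ih, sei and Irk2 had ratios of 1.10, 1.10 and 1.16, the lowest among the called genes. Photoreceptor markers had a median ratio of 1.08 over 9 genes and neuron markers a median of 1.56 over 10. The highest ratios among the neuron markers, read after the values were seen, were 8.82 for VGlut, the glutamate transporter of synaptic vesicles, and 7.54 for fne, a neuronal RNA-binding protein. Their eye disc values were 3.89, 0.958 and 21.4 CPM and 16.4, 7.09 and 88.5 CPM. The part of these markers in the channel values was not tested.

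**Figure D4:**
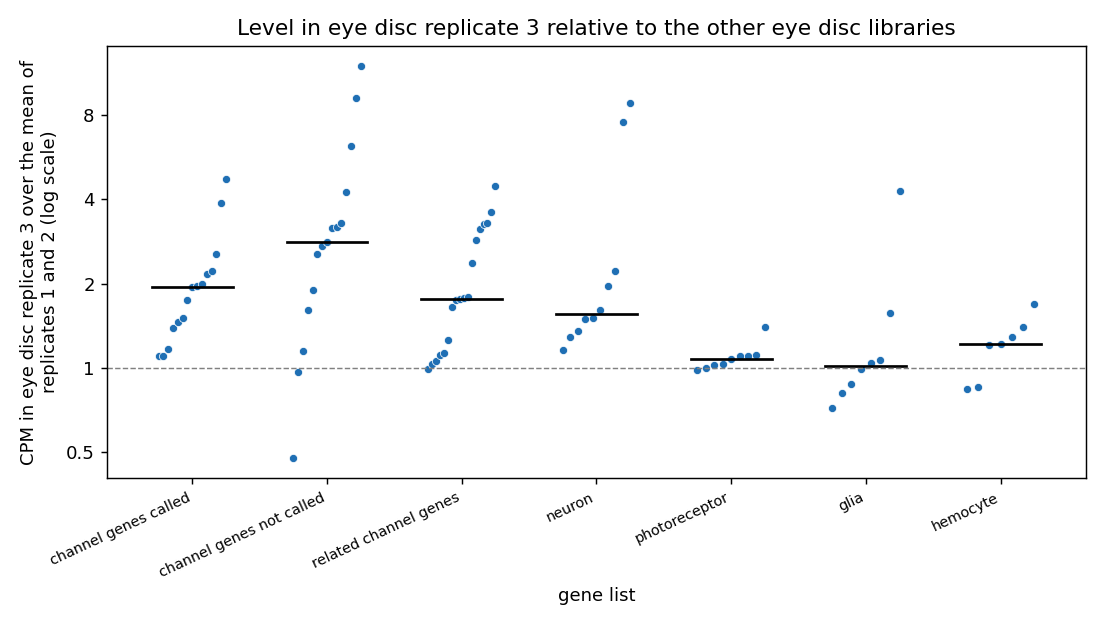
CPM in eye disc replicate 3 divided by the mean of eye disc replicates 1 and 2, on a log scale, for the tested genes of each list; each point is a gene and the bar is the median. Channel genes that were not called have a median of 2.82, called ones 1.94 and photoreceptor markers 1.08.

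Genes that work with these channels, or belong to related families, and were not on the list of 32 were counted in the same fit. Of 18 tested genes of accessory subunits and further two-pore and cyclic nucleotide-gated channels, 12 were called higher in the eye disc, 0 in the antennal disc and 6 were not called, beside the 14.6% and 11.7% of all genes. Without eye disc replicates 1, 2 and 3, 10, 9 and 9 were called, and without antennal disc replicates 1, 2 and 3, 8, 7 and 6, beside the shares of all genes given above for these fits. Both limma fits lowered the count, to 6 on log2(TPM + 1) and 7 on log2(TPM + 0.1). The largest fitted values were those of Teh2, stol and Teh4. Teh2 (FBgn0035505, chr3L:4178980-4188023), a relative of tipE, was at 5.34, 7.47 and 6.58 CPM in eye disc replicates 1, 2 and 3 and 0, 0.568 and 0 CPM in the antennal disc replicates, at a log2 fold change of 5.02 ± 1.34 (SE; edgeR adjusted p = 0.0397). In the antennal disc only replicate 2 held counts of Teh2, 17 in all, so that it passed the filter through the eye disc and its fitted size rests on that library. Its call was lost with no TMM factor (edgeR adjusted p = 0.0541) and with no filter on low counts (edgeR adjusted p = 0.0574), and that of Teh4 with no filter (edgeR adjusted p = 0.0512). Its neighbour Teh4 (FBgn0035504, chr3L:4174859-4178270) was at 5.03, 5.30 and 9.26 CPM in eye disc replicates 1, 2 and 3 and 0, 0.468 and 0.767 CPM in the antennal disc replicates, at a log2 fold change of 3.98 ± 1.06 (SE; edgeR adjusted p = 0.039). Other genes wholly cover the spans of Teh2 and Teh4, so their counts may be shared out. Teh2 kept its call only without antennal disc replicate 2, where the antennal disc held 0 counts of it and no fold is given, and Teh4 only without antennal disc replicate 1, at 3.39. Left out in turn, the other libraries gave log2 fold changes of 4.44 to 5.13 for Teh2 and 3.63 to 4.75 for Teh4.

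The gene stol (FBgn0028863, chr2L:15644183-15718272), a second alpha2delta subunit beside stj, was at 10.2, 6.005 and 19.1 CPM in eye disc replicates 1, 2 and 3 and 0.788, 0.468 and 0.307 CPM in the antennal disc replicates. The tissues were far apart, with a log2 fold change of 4.48 ± 0.58 (SE; edgeR adjusted p = 0.00284) that held its call without each library and lost it on log2(TPM + 1), at 0.39 (limma adjusted p = 0.205). Slip1, a protein that binds the channel slo, had the highest mean CPM of this list, not set against gene length, at 126 ± 7.90 CPM in the eye disc and 127 ± 4.26 CPM in the antennal disc (SD, n = 3), and its log2 fold change of -0.014 turned to 0.041 without eye disc replicate 2. The other 9 genes called were Teh1, qvr, dysc, Mid1, CG1688, CG42594, CngB, Cngl and CG42260, at log2 fold changes of 1.76 to 3.74, and CG42594 was no longer called with the replicate block. CG1688 passed the filter on low counts through the eye disc libraries alone, so a difference was built into its passing. Its antennal disc libraries held 5, 7 and 7 counts.

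The sodium pump restores the gradients on which sodium and potassium channels draw. Its catalytic subunit gene Atpalpha was at 897 ± 33.6 CPM in the eye disc and 660 ± 23.1 CPM in the antennal disc (SD, n = 3), at a log2 fold change of 0.44 ± 0.057 (SE; edgeR adjusted p = 0.00247). Among the beta subunit genes, nrv3, known from neurons, was at 39.7, 37.6 and 67.4 CPM in eye disc replicates 1, 2 and 3 and 2.40, 3.54 and 4.18 CPM in the antennal disc replicates. Its eye disc libraries were all well above the antennal ones, at a log2 fold change of 3.84 ± 0.33 (SE; edgeR adjusted p = 0.000708). The gene nrv2, a beta subunit also found in glia, had a log2 fold change of 0.44 ± 0.063 (SE; edgeR adjusted p = 0.00357), and nrv1 was not called at 0.094 ± 0.079. Both limma fits lost Atpalpha and nrv2 and left nrv3, with 0.22 for Atpalpha and 0.23 for nrv2 on log2(TPM + 1) (limma adjusted p = 0.677 and 0.674).

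Of 8 genes whose products bind or edit channel transcripts, 3 were called higher in the eye disc and 0 in the antennal disc. Over all genes tested the shares were 14.6% and 11.7%. The 3 were elav, a pan-neuronal RNA-binding protein, at 209, 148 and 241 CPM against 45.3, 40.7 and 46.1 CPM, Rbp9 at a log2 fold change of 1.75 ± 0.24 and bru1 at 1.09 ± 0.25. Other genes cover 98.6% of the elav span. The call of bru1 was lost without each antennal disc library, at 1.10, 1.12 and 1.03 without replicates 1, 2 and 3, and in both limma fits. The gene pum, whose product represses para translation, had the highest mean CPM of the list, at 226 ± 20.99 CPM in the eye disc and 207 ± 16.8 CPM in the antennal disc (SD, n = 3) and was not called. For the antennal disc, 1 gene was called with no TMM factor, DESeq2, the replicate block and without eye disc replicate 2. In these fits 3, 4, 3 and 4 were called for the eye disc. In the main fit ps was not called at -0.35 ± 0.12 (SE; edgeR adjusted p = 0.0744), with its antennal disc libraries all above the eye disc ones.

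Markers of several cell types differed between the tissues. Their counts in the main fit stand beside 14.6% of all genes called higher in the eye disc and 11.7% in the antennal disc. Of 10 neuron markers, 8 were called higher in the eye disc and 0 in the antennal disc, with the largest differences for brp, cpx and nSyb, genes of presynaptic terminals, at log2 fold changes of 4.47 ± 0.28, 3.82 ± 0.40 and 3.74 ± 0.34. The neuron markers summed to 616 to 1098 CPM in the eye disc libraries and 127 to 138 CPM in the antennal disc libraries. All 9 tested photoreceptor markers were called higher in the eye disc, summing with the untested ninaE to 1547 to 1836 CPM against 122 to 158 CPM. The opsin gene ninaE, a marker of mature photoreceptors, was at 8 counts or fewer in every library. Glial markers were called higher in the eye disc for 6 of 8 and in the antennal disc for 1, with sums of 1189 to 1432 CPM against 1835 to 2080 CPM. The antennal excess of that sum came from bnb, the 1 marker called for the antennal disc, which was set aside after its values were seen. The other 7 summed to 943 to 1058 CPM in the eye disc and 587 to 651 CPM in the antennal disc. Gli was the largest part of this sum, at 420 and 314 mean CPM. Log2 fold changes of the 6 markers called for the eye disc ran from 0.42 for Gli to 4.20 for moody, with repo at 3.26. Both limma fits called 4 of the 8 for the eye disc. Hemocyte markers were called higher in the eye disc for 6 of 7, with sums of 613 to 761 CPM against 335 to 421 CPM. That count was 4 without antennal disc replicate 2 or 3 and 0 in both limma fits.

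Sensory organ precursor markers were called higher in the eye disc for 3 of 8 and in the antennal disc for 1, beside 14.6% and 11.7% of all genes. The antennal count was near that share. Their sums were 343 to 562 CPM in the eye disc against 281 to 315 CPM in the antennal disc. The 3 eye disc calls fell to 0 with no TMM factor and without antennal disc replicate 1, 2 or 3, to 1 with the replicate block, with no count filter and in both limma fits, and to 2 without eye disc replicate 1 or 3. Muscle markers were called for 1 of 7 in each direction, near the 14.6% and 11.7% of all genes, at 404 to 753 CPM against 737 to 931 CPM. Their antennal call was lost without eye disc replicate 3 and without each antennal disc library and became 2 without eye disc replicate 2, while both limma fits called 6 of 7 for the antennal disc and 0 for the eye disc. Of 5 tracheal markers, 1 was called higher in the antennal disc, beside 11.7% of all genes, and 0 without antennal disc replicate 3. The tracheal sums were 1524 to 1774 CPM in the eye disc against 1872 to 2403 CPM in the antennal disc. For the eye disc 0 tracheal markers were called, and 1 with DESeq2 and without eye disc replicate 1. No fat body marker of 5 was called with edgeR and all libraries or with DESeq2, but 3 were called for the eye disc without eye disc replicate 1 and 2 in both limma fits, and their sum was 23002 CPM in eye disc replicate 2 and 3067 to 7862 CPM in the other libraries. The part of these cell types in the differences of the channel genes was not tested.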

How the data were processed

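Per the file headers, the deposited tables are in the layout of kallisto and hold estimated counts and TPM for each gene. The submitters' processing notes name kallisto, FastQC, bedtools and dm6. Versions, the strandedness assumed in counting and the release of the annotation were not given in the sources used here. Lengths listed by the authors equal the whole gene span for 99.3% of 13149 genes with more than 1 exon. Spans of 47.6% of genes overlap another gene, where counts can be shared out. Names and dm6 coordinates came from the annotation table for 17622 of 17753 genes. A further deposited file per sample, which lists genes by region, was not used.

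Estimated counts were rounded, filtered with filterByExpr, scaled by TMM and tested with the robust edgeR 4.0.16 quasi-likelihood test in R 4.3.3, eye disc against antennal disc, and p-values of 9901 genes were adjusted by the Benjamini-Hochberg method, with calls under 0.05. CPM use the TMM-scaled library. The SE is approximate, the absolute log2 fold change over the root of F. Figures add 0.05 CPM before the log. Alternatives used DESeq2 1.42.0, limma 3.58.1 on log2(TPM + 1) or log2(TPM + 0.1), other filters and scalings, overlapping genes summed or left out, a replicate block, and each library left out. Steps were tested on simulated data. Tables and plots were made with pandas 2.3.3 and matplotlib 3.10.9 in Python 3.11.15.

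Library totals were 17583649 to 29093995 counts, and replicates differed by more than sampling noise (chi-square per degree of freedom of 16.1 to 353), so none was a copy. Groups and replicate numbers came from the titles. Libraries with the same replicate number shared deviations from the means of their tissue, with correlations across genes of 0.415, 0.308 and 0.242, against -0.43 to 0.0819 for the other pairings. Only the fit with the replicate block took the numbers to pair the samples, a reading from the data and not the labels. The main test and the other alternatives used no pairing. P-values measure the spread between these samples.

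Genes and lists were chosen with earlier results of these data known. Values in every library are given for each called channel gene and for the gene of highest mean CPM in each class. Others with such values were chosen after those values were seen. Of other lists, up to 3 called genes per direction and the gene of highest mean CPM are named. Of 24 related genes listed, 21 were found, and 18 were tested.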

Additional observations from a re-analysis of the deposited data

How the results depend on the processing

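The 15 channel calls for the eye disc stayed within 1.5 times under every alternative run (10 to 18), and no called gene changed direction. Calls toward the antennal disc went from 0 to 1 with DESeq2 and with the replicate block (NaCP60E in both). With overlapping genes summed they also went to 1 (Irk1), on counts that were mostly those of the overlapping genes. Beside NaCP60E, the replicate block changed the call of Sh, which it ended, and of no other channel gene, and of the related genes it ended CG42594. It gave 14 channel calls for the eye disc at a background of 16.3%. DESeq2 called 18 (18.7% of all genes), adding Elk, Task7 and Ca-alpha1D. Without TMM factors Sh and sei were lost, and 770 genes in all were called for the antennal disc. Without a count filter Sh was lost.

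On log2(TPM + 1), 858 genes were called for the eye disc and 344 for the antennal disc, against 1449 and 1161 on counts, with 6 related genes, 24 and 9 genes of the marker and context lists and a median channel log2 fold change of 0.22. On log2(TPM + 0.1) the numbers were 909, 339, 7 related genes, 9 antennal list genes and 0.71. The TPM scales moved the median of all genes to -0.18 and -0.20, understate low genes, and left 10 and 11 channel calls. TPM entered these fits without TMM scaling. The gene nrv2, at 274, 263 and 279 CPM in eye disc replicates 1, 2 and 3, was at 70.9, 41.9 and 74.9 TPM. The part of this scaling in the lost calls was not tested. KCNQ turned to -0.016 and -0.076 and pum to -0.050 and -0.082. Among genes without overlap, a smaller set, 737 and 615 were called, with 4 related and 16 list genes. All 10 called channel genes in it were called again. They entered with the same counts as in the main fit, so the repeat does not bear on counts shared out by overlap. With overlapping genes summed, Shawl was at -0.30, Irk1 at -0.48, Irk3 at -0.12 and sand at 0.28, and the sums of Elk and sand were called for the eye disc. Most counts in these sums were those of the overlapping genes, so they are not calls of the channel genes alone.

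Leaving out each library gave 919 to 1462 genes for the eye disc and 520 to 1117 for the antennal disc, 0 to 1 antennal channel calls, 6 to 10 related genes, 2 to 6 antennal list genes and a median channel change of 1.19 to 2.18. Signs turned within -0.12 to 0.18 for KCNQ, -0.094 to 1.06 for SLO2, -1.06 to 1.31 for Shab, -0.055 to 0.041 for Slip1, -0.96 to 0.066 for sand, -0.75 to 0.22 for slo and -0.50 to 2.22 for unc80, none of them called. Apart from the libraries and genes left out, the cause of these changes was not tested. Channel genes under about 1 CPM rest on few counts.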
